A study of Mus musculus with 4 samples.

Results

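The signal of 40 interferon response genes was compared on 4 arrays of cochlear RNA from WT and OHC-TRECK mice. The members were taken from the arrays by gene name. All 40 had a probe well above background on at least 1 array, and they stand among 21942 such genes of the 30028 gene names on the array. Where a gene had several probes, the brightest was used, and 26 members had 1 probe and 14 had several.

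Each group was measured on 1 array. The WT group held untreated B6J (C57BL/6J) mice, and the WT DT group held B6J mice given 50 μg/kg of diphtheria toxin (DT) 7 days before the cochleae were taken. The OHC-TRECK and OHC-TRECK DT groups held transgenic mice on the same background, either untreated or given the same dose and taken after the same interval. The transgene is driven by the promoter of prestin (Slc26a5), the motor protein of outer hair cells, and encodes the human DT receptor, so that DT can kill the cells that make it. It was carried in 1 transgenic line. Mice in all groups were 5 weeks old, and the series design gives 4 females and 4 males per group, with male and female RNA pooled. The 4 arrays lay on 1 slide, so that group, pool of animals and array position cannot be told apart, and no difference below has a replicate check or a p-value. In whole tissue, fewer cells of a type and less RNA per cell cannot be told apart either.

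The groups were first set against their labels. Of 11 genes listed as markers of outer hair cells, all were lower in OHC-TRECK DT than in untreated OHC-TRECK, with a median log2 ratio of -1.56. The ratios ran from -3.10 for Strc to -0.01 for Ikzf2. By 2-fold or more, 7 were lower, where 304 of 20006 genes were. Slc26a5 itself was not well above background in OHC-TRECK DT. Ocm, the calcium buffer oncomodulin, had log2 levels of 4.36 in WT, 4.21 in WT DT, 4.35 in OHC-TRECK and 1.97 in OHC-TRECK DT. On each array, 62.2% to 70.6% of the probes stood well above background, and 0 spots were saturated.

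Interferons are secreted proteins, and many of them are released when cells sense foreign or misplaced nucleic acids. Type I interferons act through a receptor of Ifnar1 and Ifnar2, whose kinases Jak1 and Tyk2 activate a factor that holds Stat2 and Irf9 and binds the interferon-stimulated response element (ISRE) of target promoters. Interferon gamma acts through Ifngr1 and Ifngr2, and many of its target promoters hold a gamma-activated site (GAS). The products of target genes detect nucleic acids, block viral replication, mark proteins with the ubiquitin-like Isg15, attack vacuoles that hold pathogens and load peptides on MHC class I. Macrophages are among the cells that carry a steady level of these transcripts without infection.

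The element that gives the set its name can be read in the RefSeq promoters of several members that the results turn on. The promoter table holds 31 of the 40 members, each with 250 bases before and 50 bases after the start of the gene (build GRCm38.p6). A core ISRE, spelled GAAA, 2 bases of any kind and GAAA again, and searched on both strands with overlaps allowed, was found in 15 of these 31 (48.4%) and in 3.99% of the 27025 genes in the table. A core GAS, TTCNNNGAA, which reads the same on both strands, was found in 8 of 31 (25.8%) and in 9.55% of all genes. The 6 promoters below are shown because their genes cover the antiviral effectors, Isg15 and a GTPase, and because the same element stands in genes that differ in where their OHC-TRECK DT signal lay. Capitals mark ISRE cores, as they read on the strand of the gene.
Bst2, chr8:71537423-71537722, minus strand: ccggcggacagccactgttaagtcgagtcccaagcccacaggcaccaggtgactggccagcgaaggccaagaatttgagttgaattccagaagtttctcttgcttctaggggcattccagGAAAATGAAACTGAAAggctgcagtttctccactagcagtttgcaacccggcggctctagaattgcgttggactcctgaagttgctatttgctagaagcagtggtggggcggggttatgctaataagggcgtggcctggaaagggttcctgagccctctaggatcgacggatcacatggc
Rsad2, chr12:26456403-26456702, minus strand: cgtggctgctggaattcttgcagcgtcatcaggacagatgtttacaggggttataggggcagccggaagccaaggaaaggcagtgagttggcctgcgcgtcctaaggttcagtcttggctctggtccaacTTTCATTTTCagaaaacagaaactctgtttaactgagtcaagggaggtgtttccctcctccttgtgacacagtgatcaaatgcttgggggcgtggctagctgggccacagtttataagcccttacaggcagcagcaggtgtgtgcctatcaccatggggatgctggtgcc
Irgm1, chr11:48871371-48871670, minus strand: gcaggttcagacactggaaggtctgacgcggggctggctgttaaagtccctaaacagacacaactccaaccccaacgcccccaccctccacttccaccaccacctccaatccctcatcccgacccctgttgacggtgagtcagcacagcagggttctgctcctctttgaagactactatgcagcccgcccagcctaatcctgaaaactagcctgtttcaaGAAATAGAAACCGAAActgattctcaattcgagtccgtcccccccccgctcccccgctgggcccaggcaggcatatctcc
Isg15, chr4:156200769-156201068, minus strand: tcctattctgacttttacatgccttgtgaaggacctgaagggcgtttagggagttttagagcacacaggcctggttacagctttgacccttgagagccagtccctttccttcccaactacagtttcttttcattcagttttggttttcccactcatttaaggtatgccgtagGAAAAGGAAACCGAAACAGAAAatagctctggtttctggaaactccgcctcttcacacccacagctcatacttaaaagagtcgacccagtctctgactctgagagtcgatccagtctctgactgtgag
Ifit1, chr19:34640639-34640938, plus strand: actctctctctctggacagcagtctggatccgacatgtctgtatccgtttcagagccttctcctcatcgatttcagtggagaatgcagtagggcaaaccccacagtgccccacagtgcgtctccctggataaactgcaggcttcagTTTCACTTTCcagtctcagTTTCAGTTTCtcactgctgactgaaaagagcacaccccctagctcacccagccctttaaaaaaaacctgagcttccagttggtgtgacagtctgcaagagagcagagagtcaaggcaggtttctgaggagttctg
Ifit3, chr19:34583279-34583578, plus strand: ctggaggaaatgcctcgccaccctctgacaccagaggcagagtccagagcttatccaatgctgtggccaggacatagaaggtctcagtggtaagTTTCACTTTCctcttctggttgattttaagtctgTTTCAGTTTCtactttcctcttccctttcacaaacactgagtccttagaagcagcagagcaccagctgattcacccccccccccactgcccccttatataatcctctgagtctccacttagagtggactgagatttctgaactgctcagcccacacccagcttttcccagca
The cores of Bst2, Irgm1 and Isg15 overlap each other, with 2, 2 and 3 matches. Those of Ifit1 and Ifit3 are 2 separate matches on the opposite strand, where the single core of Rsad2 also lies. The first match began 130 bases before the start in Bst2, 120 in Rsad2, 104 in Ifit1, 156 in Ifit3, 78 in Isg15 and 30 in Irgm1. A match of these letters is a description of the window and not a measured binding site.

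The main pattern of the 40 genes had 2 parts. In untreated OHC-TRECK their signal was lower than in untreated WT in 38 of 40 members, where 54.9% of all genes were lower, with a median log2 ratio of -0.30. In OHC-TRECK DT it was higher than in untreated OHC-TRECK in all 39 members that could be compared, where 49.7% of all genes were higher, with a median of 0.44. Oas3, the member left out, was well above background in untreated OHC-TRECK and not in OHC-TRECK DT. Against untreated WT, OHC-TRECK DT was higher in 24 of 39 members, where 47% of all genes were higher, with a median of 0.09. The difference within OHC-TRECK is by construction the difference against untreated WT minus the gap at baseline, so the comparisons share arrays and are not separate pieces of evidence.

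**Figure D1:**
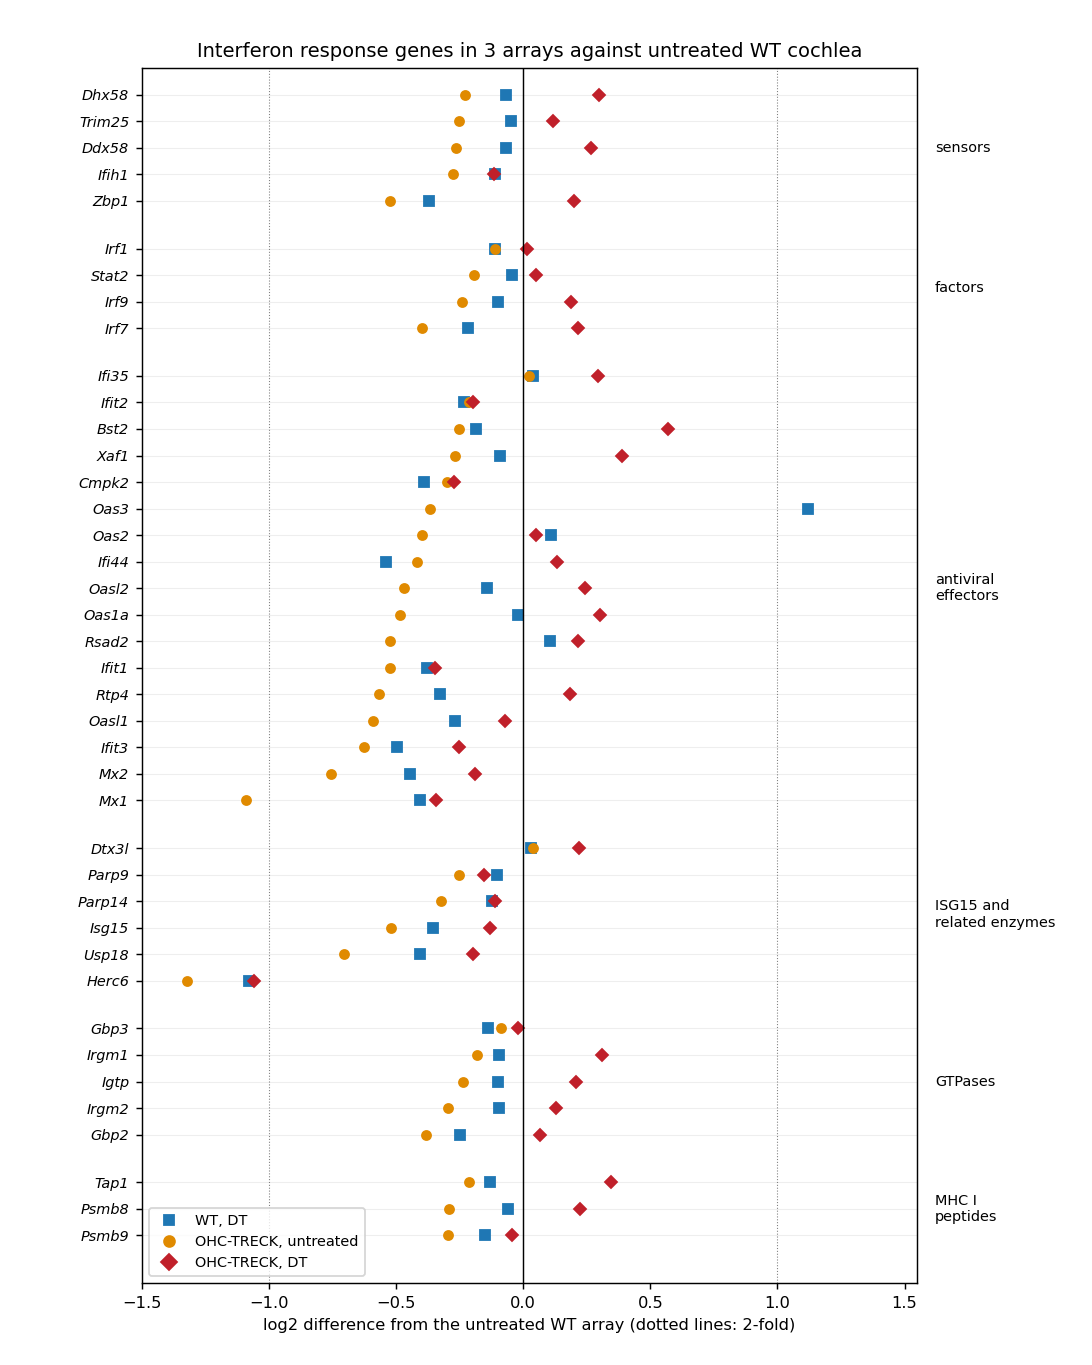
Log2 difference of the normalized signal from the untreated WT array (horizontal axis) for each of the 40 interferon response genes (rows, by role), in WT DT (blue squares), untreated OHC-TRECK (orange circles) and OHC-TRECK DT (red diamonds), with 1 array per group. The orange circles lie left of 0 in 38 of 40 genes, and the red diamonds lie right of them in the 39 genes drawn with both, 24 of these right of 0. Oas3 has no red diamond because it was not well above background on that array.

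Signals are given as log2 of the intensity divided by the 75th percentile of the array, so that 0 is the 75th percentile. They are compared between arrays and not between genes. Genes were read as called at 2-fold, and 1.5-fold was counted as well. The floor of an array is its lowest signal well above background. Where a gene was not well above background on 1 array of a pair, the higher of its own signal and that floor was used. The fold is then a lower bound. As a guide to technical spread, the spots of repeated probes varied with a median SD of 0.061 to 0.071 on the log2 scale within an array. This does not include the spread between mice or between arrays.

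The sensors of nucleic acids and a partner of theirs were 5 members, and all 5 were lower in untreated OHC-TRECK than in WT. Ddx58 (RIG-I), a sensor of viral RNA, had log2 levels of 0.54 in WT, 0.47 in WT DT, 0.27 in OHC-TRECK and 0.80 in OHC-TRECK DT. The untreated OHC-TRECK array was the lowest and the OHC-TRECK DT array the highest, 1.44-fold apart, but a second, dimmer probe gave -0.27 where the first gave 0.26 for OHC-TRECK DT against untreated WT. Dhx58 (LGP2), a regulator of RIG-I-like sensing, had levels of -2.38, -2.45, -2.61 and -2.09 in the same order. Zbp1, a sensor of nucleic acids in the Z form, had levels of -2.62, -3.00, -3.15 and -2.43, and its OHC-TRECK DT signal was 1.65-fold that of untreated OHC-TRECK. With the mean of its 2 probes, Zbp1 in OHC-TRECK DT had a log2 ratio of -0.11 to untreated WT in place of 0.20. Ifih1 (MDA5) and Trim25, a ubiquitin ligase that activates RIG-I, had smaller ranges, of 0.28 and 0.37. OHC-TRECK DT lay above both WT arrays in 4 of the 5, all but Ifih1. For Trim25, a second probe was higher by 0.17 in untreated OHC-TRECK where the brightest was lower by 0.25.

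The 4 transcription factors were all lower in untreated OHC-TRECK than in WT, by 0.11 to 0.40. Irf7, the amplifier of type I interferon production, had log2 levels of -2.01 in WT, -2.23 in WT DT, -2.41 in OHC-TRECK and -1.80 in OHC-TRECK DT. Irf9, the DNA-binding part of the type I factor, had levels of 1.63, 1.53, 1.39 and 1.82. Stat2, its partner, had levels of 0.68, 0.64, 0.48 and 0.73. All 3 were lowest in untreated OHC-TRECK and highest in OHC-TRECK DT, by 1.53-fold for Irf7, 1.35-fold for Irf9 and 1.19-fold for Stat2. Irf1, a factor of the interferon gamma response, differed least, with a range of 0.13 over the 4 arrays. In all 4 factors OHC-TRECK DT was above both WT arrays, by 0.01 to 0.22 against untreated WT, and the values for Irf1 and Stat2 (0.01 and 0.05) lie within the spread of repeated spots.

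The 17 antiviral effectors were lower in untreated OHC-TRECK than in WT in 16 cases, with a median of -0.47, the largest median gap of the 6 role groups. Bst2 (tetherin), which holds budding virions at the cell surface, had log2 levels of 2.22 in WT, 2.03 in WT DT, 1.96 in OHC-TRECK and 2.78 in OHC-TRECK DT. Its OHC-TRECK DT signal stood above the other 3 arrays by 0.57 to 0.82, and was 1.77-fold that of untreated OHC-TRECK and 1.48-fold that of untreated WT. Mx1, a dynamin-like GTPase that RefSeq lists as a transcribed pseudogene in the reference genome, had levels of -3.14, -3.54, -4.22 and -3.48. Its signal in untreated OHC-TRECK was 2.13-fold lower than in untreated WT, and in OHC-TRECK DT it was still 1.27-fold lower. Mx2, also listed as a transcribed pseudogene, was 1.69-fold lower at baseline and 1.14-fold lower in OHC-TRECK DT than in untreated WT.

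The Ifit genes, whose products bind viral RNA ends and block translation, did not reach the untreated WT level. Ifit1 had log2 levels of -0.07 in WT, -0.45 in WT DT, -0.59 in OHC-TRECK and -0.41 in OHC-TRECK DT. Ifit3 had levels of 1.70, 1.20, 1.07 and 1.45 on the same arrays. Ifit2 had levels of -1.53, -1.77, -1.75 and -1.73, and its difference between OHC-TRECK DT and untreated OHC-TRECK, 0.01, was the smallest of any member. For all 3, untreated WT was the highest array, and WT DT was also lower than untreated WT, by 0.23 to 0.50.

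The oligoadenylate synthetases make the activator of RNase L, and the Oas-like genes are related to them in sequence. Oas1a had log2 levels of 0.68 in WT, 0.66 in WT DT, 0.20 in OHC-TRECK and 0.98 in OHC-TRECK DT. Oasl2, an Oas-like gene, was 1.39-fold lower at baseline and 1.18-fold higher in OHC-TRECK DT than in untreated WT. Oasl1, another Oas-like gene, was 1.51-fold lower at baseline, and its ratio of OHC-TRECK DT to untreated WT was -0.07 on the log2 scale. In 2 members WT DT was the highest array. Oas2 had levels of -2.98, -2.87, -3.37 and -2.93, and its ratio of OHC-TRECK DT to WT DT was -0.06 on the log2 scale, about the spread of repeated spots. Oas3 had levels of -5.20, -4.08 and -5.57 on the first 3 arrays, and it was not well above background in OHC-TRECK DT. For Oas3, WT DT was 2.18-fold above untreated WT and at least 2.57-fold above OHC-TRECK DT. Its probe was dim on every array.

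Of the remaining effectors, Rsad2, Rtp4 and Xaf1 were lowest in untreated OHC-TRECK and highest in OHC-TRECK DT. In Ifi44, Cmpk2 and Ifi35 the 2 did not both hold. Rsad2 (viperin), which makes a chain-terminating nucleotide, and Rtp4, a chaperone of receptors that is induced by interferon, were 1.67-fold and 1.68-fold higher in OHC-TRECK DT than in untreated OHC-TRECK. Xaf1, a binding partner of the apoptosis inhibitor XIAP, was 1.31-fold higher in OHC-TRECK DT than in untreated WT, next to Bst2 the largest such difference of any member. Ifi44 was lowest in WT DT, at -2.36, and not in untreated OHC-TRECK. Cmpk2, a nucleotide kinase beside Rsad2 on chromosome 12, was lowest in WT DT as well and differed by 0.03 between the OHC-TRECK arrays. Ifi35 had no gap at baseline (0.02) and was 1.21-fold higher in OHC-TRECK DT than in untreated OHC-TRECK.

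**Figure D2:**
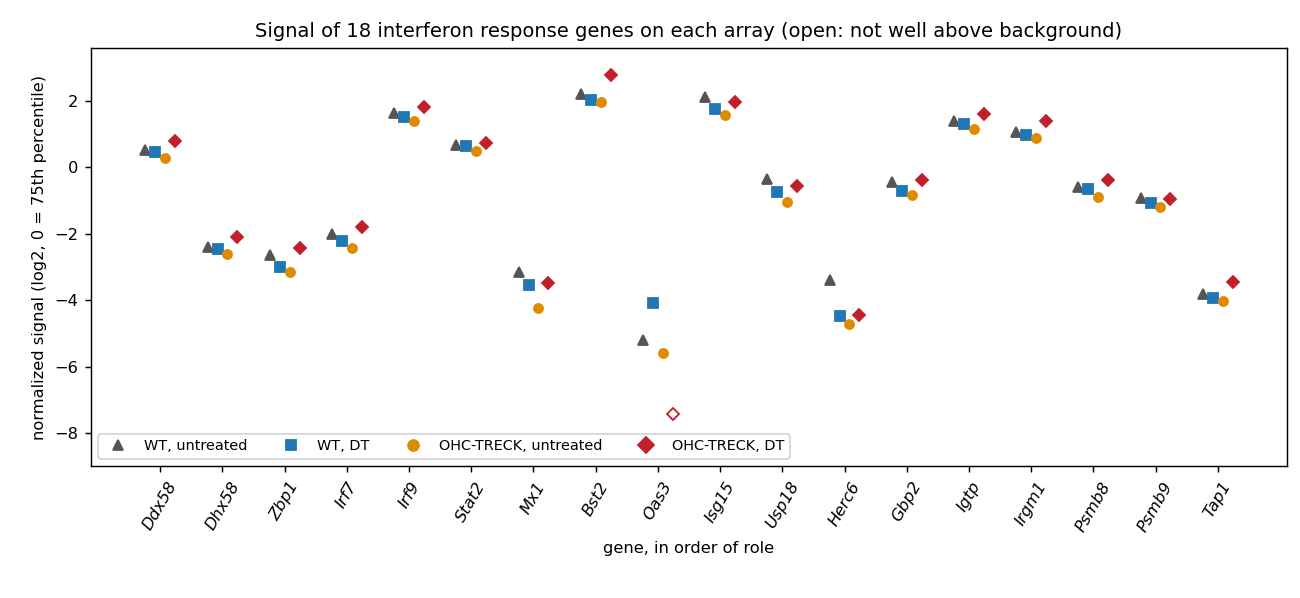
Normalized log2 signal (vertical axis, 0 is the 75th percentile of the array) of 18 interferon response genes on the WT, WT DT, OHC-TRECK and OHC-TRECK DT arrays, with 1 array per group. For most genes the orange circle (untreated OHC-TRECK) is the lowest of the 4, while Oas3 has its highest signal in WT DT and an open diamond where it was not well above background. Heights are to be read within a gene, since probes differ in brightness.

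Of the 6 members around Isg15, ubiquitin and ADP-ribose, OHC-TRECK DT lay above both WT arrays in 1, Dtx3l, a ubiquitin ligase that pairs with Parp9. Isg15, the ubiquitin-like modifier, had log2 levels of 2.11 in WT, 1.76 in WT DT, 1.59 in OHC-TRECK and 1.98 in OHC-TRECK DT. A second Isg15 probe gave a like gap at baseline, -0.53 against -0.52. Usp18, the protease that removes Isg15 and dampens the type I receptor, had levels of -0.35, -0.75, -1.05 and -0.55. In both genes untreated WT was the highest array, untreated OHC-TRECK the lowest, and OHC-TRECK DT in between.

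Herc6, the mouse ligase that attaches Isg15, had log2 levels of -3.38 in WT, -4.46 in WT DT, -4.70 in OHC-TRECK and -4.44 in OHC-TRECK DT. Untreated WT was apart from the other 3 arrays, which lay 2.08-fold to 2.50-fold below it. A second, dimmer probe of Herc6 did not show this: its ratio of untreated OHC-TRECK to untreated WT was -0.12 on the log2 scale, and that of OHC-TRECK DT to untreated WT was 0.45. Parp9 and Parp14, which handle ADP-ribose, lay at or below the untreated WT level on all arrays, and Dtx3l was the other member with no gap at baseline (0.04).

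The 5 GTPases, which act on vacuoles that hold pathogens, were all lower in untreated OHC-TRECK than in untreated WT, by 0.09 to 0.38. Irgm1 had log2 levels of 1.08 in WT, 0.98 in WT DT, 0.89 in OHC-TRECK and 1.39 in OHC-TRECK DT. Igtp (Irgm3) had levels of 1.40, 1.30, 1.16 and 1.61, with 10 spots of its probe on each array varying with an SD of 0.068 to 0.091. Gbp2 had levels of -0.45, -0.70, -0.83 and -0.38. For each of these, OHC-TRECK DT was the highest array and untreated OHC-TRECK the lowest, with folds of 1.41 for Irgm1 and 1.36 for Igtp and Gbp2. Irgm2 had the same order, and Gbp3 had a range of 0.14.

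The 3 genes that supply peptides to MHC class I lie side by side on chromosome 17. Psmb8, an immunoproteasome subunit, had log2 levels of -0.59 in WT, -0.65 in WT DT, -0.89 in OHC-TRECK and -0.37 in OHC-TRECK DT. Psmb9, another subunit, had levels of -0.91, -1.06, -1.20 and -0.95. Tap1, a subunit of the peptide transporter, had levels of -3.80, -3.93, -4.01 and -3.46, with an SD of 0.072 to 0.151 between its 8 to 10 spots on an array. Psmb8 and Tap1 were highest in OHC-TRECK DT, and Psmb9 in untreated WT by 0.05.

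At baseline, untreated OHC-TRECK against untreated WT, the count of 38 of 40 was 95% of the members. At 2-fold, 2 members were lower, Mx1 and Herc6, where 2.48% of all genes were. At 1.5-fold, 6 of 40 (15%) were lower, where 4.76% of all genes were, and 0 were higher, where 2.42% were. The median over all genes was -0.01. Most of these differences were small and ran in 1 direction. Untreated OHC-TRECK was the lowest of the 4 arrays in 32 of 39 members well above background on all arrays, where it was the lowest in 17.3% of all such genes. OHC-TRECK DT was the highest in 23 of 39, where it was in 33.5% of all such genes. In 19 members both held, where they did in 8.51%.

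After DT in WT mice, 35 of 40 members were lower than in untreated WT, where 58.4% of all genes were, with a median of -0.13 against -0.04 over all genes. Oas3 was higher by 2-fold, where 1.58% of all genes were, and Herc6 lower, where 1.14% were. After DT in OHC-TRECK mice, all 39 members compared were higher than in untreated OHC-TRECK, with Oas3 left out. None of these reached 2-fold, where 2.9% of all genes did, and 9 reached 1.5-fold, where 5.47% did: Zbp1, Irf7, Mx1, Rsad2, Bst2, Oas1a, Oasl2, Rtp4 and Xaf1. The toxin difference, also without Oas3, was larger in OHC-TRECK than in WT in all 39 members. It was in 54.1% of all genes, and the median of the members was 0.60 on the log2 scale. With normexp background correction it was in 38 of 39, all but Trim25. The untreated OHC-TRECK array enters this difference, and so does its lower signal.

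To keep the baseline gap apart, OHC-TRECK DT was read against the 2 WT arrays. Against WT DT, 36 of 39 members were higher, where 52.4% of all genes were, with a median of 0.23. None was higher by 2-fold, where 1.52% of all genes were, and 2 were by 1.5-fold, Bst2 and Ifi44, where 4.12% were. Oas3, by its lower bound, was the 1 member lower by 2-fold, where 1.95% of all genes were. Against untreated WT, 24 of 39 were higher, and 0 of 40 reached 1.5-fold, where 4.77% of all genes did. Herc6 alone was lower by 2-fold, where 2.08% of all genes were. OHC-TRECK DT lay above both WT arrays in 23 of 39 members, where it did in 37.7% of all genes. It lay between them in 14, where it did in 23.5%, and below both in 2, Ifih1 and Parp9, where it did in 38.7%. The ratios of these 2 to WT DT, -0.005 and -0.05, lie within the spread of repeated spots. The largest excess over untreated WT was 0.57, for Bst2, whose excess over untreated OHC-TRECK was 0.82.

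**Figure D3:**
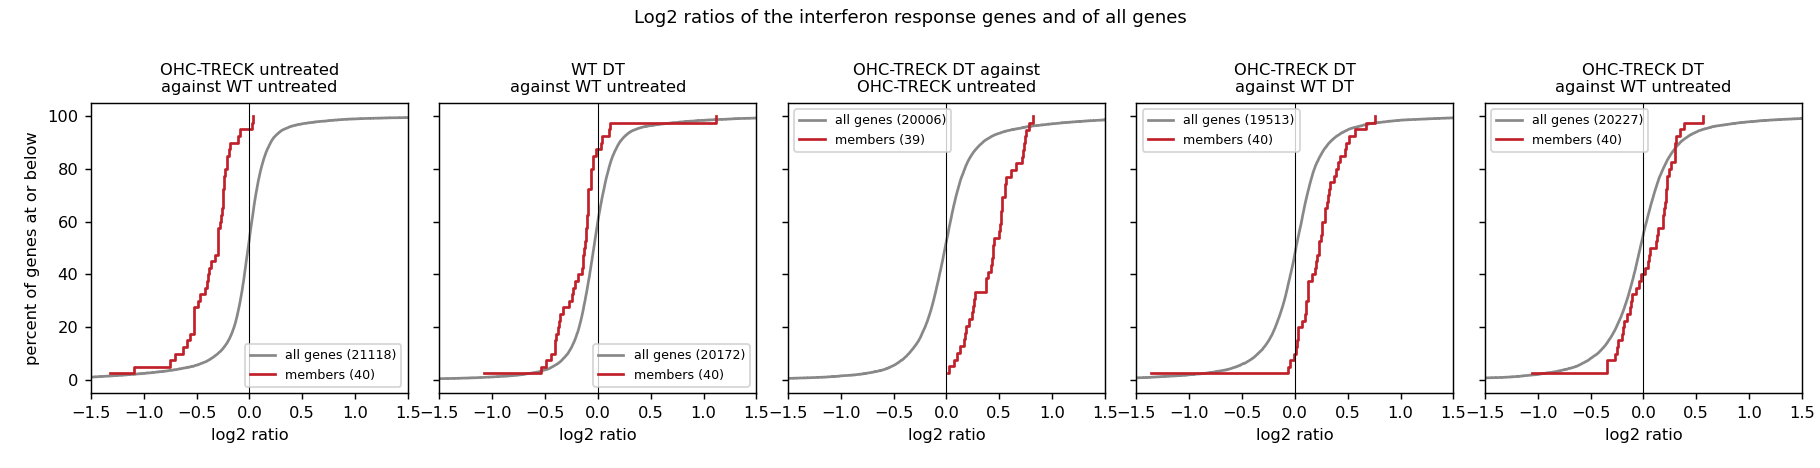
Cumulative share of genes (vertical axis, percent) at or below each log2 ratio (horizontal axis) for the interferon response genes (red) and all genes (grey) in 5 comparisons of 2 arrays, with gene numbers in the keys. Lower bounds are drawn at the bound and the axis ends at 1.5 on either side. The red line lies left of the grey one for untreated OHC-TRECK against untreated WT, with a median of -0.30, right of it within OHC-TRECK, with a median of 0.44, and close to it for OHC-TRECK DT against untreated WT, with a median of 0.09.

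Several members are neighbours on a chromosome. By the positions of their probes (build mm9), 22 members fall in 9 groups whose neighbours lie within 500 kilobases. In 3 of these groups the members lay on the same side of untreated WT in OHC-TRECK DT, and in the other 6 they lay on both sides. The 3 Ifit genes (chromosome 19, 34650244 to 34723796) were all below untreated WT in OHC-TRECK DT, by 0.20 to 0.35, as were Mx1 and Mx2 (chromosome 16, 97668644 to 97782327), by 0.19 to 0.34. Igtp and Irgm2 (chromosome 11, 58020927 to 58036093) were both above it, by 0.13 to 0.21. Members with an ISRE core and members without one had like medians at baseline, -0.29 over 15 genes and -0.28 over 16, and within OHC-TRECK, 0.43 over 14 genes and 0.40 over 16.

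The genes above the targets in the pathway were read next. Of 19 genes for interferons, 15 were on the array and 9 were well above background somewhere, none with a log2 level above -2.97. Ifna5, Ifna14, Ifnab and Ifnl3 were well above background on all 4 arrays. The strongest signal of the list was that of Ifnl3, at -2.97 in WT, -3.27 in WT DT, -3.35 in OHC-TRECK and -3.33 in OHC-TRECK DT. Ifnb1 and Ifng, the genes for interferon beta and interferon gamma, were not well above background on any array. Ifne, an interferon of epithelia, was well above background on the OHC-TRECK arrays only, at -4.20 untreated and -4.37 with DT. The 10 receptor and kinase genes had a median of -0.03 at baseline and 0.06 within OHC-TRECK, and none differed by 1.5-fold in either.

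The 13 genes of upstream adaptors, kinases and factors had no shared gap at baseline (median -0.05). Within OHC-TRECK 11 of 13 were higher (median 0.31), where 9487 of 20006 genes were. Irf8, a factor of the myeloid lineage, was the 1 member of that list higher by 2-fold, with levels of -1.66, -1.47, -2.11 and -1.05. Of 6 negative regulators, Socs3, an inhibitor of cytokine receptor kinases, had levels of -0.36, -0.39, -0.38 and 0.72, and it was the only one higher by 2-fold in OHC-TRECK DT against each of the other arrays. It had no gap at baseline.

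A list of 42 other interferon targets was read in the same way, of which 39 were well above background somewhere. At baseline 30 of 37 were lower, where 11309 of 21118 genes were, with a median of -0.18. Within OHC-TRECK 29 of 36 were higher, where 9487 of 20006 genes were, with a median of 0.41. These values come from the same 4 arrays, so they are not separate evidence for the pattern of the members. Against untreated WT the list lay further up than the members, with 28 of 37 higher and a median of 0.19. Of all genes, 9044 of 20227 were higher. Cxcl10, a chemokine for T cells, had log2 levels of -0.65 in WT, -0.35 in WT DT, -0.92 in OHC-TRECK and 0.53 in OHC-TRECK DT. Its OHC-TRECK DT signal was the highest, 2.75-fold that of untreated OHC-TRECK and 2.27-fold that of untreated WT. Mnda was 2.05-fold higher within OHC-TRECK. B2m and H2-K1, the light and a heavy chain of MHC class I, had no gap at baseline (0.01 and -0.07) and were higher in OHC-TRECK DT than in untreated WT by 0.52 and 0.51. Ido1, an enzyme of tryptophan breakdown, and Cxcl9, a chemokine for T cells, were well above background in WT DT only, at -4.86 and -5.02.

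Markers of other cells moved with these comparisons. Of 15 macrophage and monocyte markers, 13 were well above background somewhere. All 13 were lower in untreated OHC-TRECK than in untreated WT (median -0.22), where 11309 of 21118 genes were. In OHC-TRECK DT, 12 of 13 were higher than in untreated WT, where 9044 of 20227 genes were, with a median of 0.73. Itgam was lower, at -0.75. The summed signal of this list, in units of the 75th percentile, was 26.0 in WT, 23.0 in WT DT, 20.9 in OHC-TRECK and 32.5 in OHC-TRECK DT. Bright genes weigh most in such a sum. By gene, 6 of 13 were higher in WT DT than in untreated WT, where 8022 of 20172 genes were, with a median of -0.05. Ccr2, a receptor of recruited monocytes, had log2 levels of -5.07, -4.49, -5.89 and -3.30. This was a dim probe with the highest ratio of the list within OHC-TRECK (2.59). By quantitative PCR, the authors did not find Ccr2 significantly higher in transgenic mice given DT. They did find Ccl2, Ccl4, Ccl7, Cd28 and Mpeg1, immune genes outside this list, significantly higher. Cd163 was dim, with 0 arrays well above background, and Ly6c2 had no probe.

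Markers of blood cells had another order. All 13 neutrophil markers that could be compared were lower in untreated OHC-TRECK than in untreated WT (median -1.34), where 11309 of 21118 genes were. Their summed signal over all 14 was 39.1 in WT, 61.6 in WT DT, 14.2 in OHC-TRECK and 24.4 in OHC-TRECK DT, so that WT DT was the highest array. Platelet markers were also lower at baseline (median -0.70, 5 of 5), while those of B cells had a median of -0.29 and erythroid markers one of 0.09. In WT DT against untreated WT, 8022 of 20172 genes were higher. All 10 erythroid markers were higher (median 1.99), as were all 10 B cell markers (median 0.81). Within OHC-TRECK these medians were 0.96 and 0.11. For OHC-TRECK DT against WT DT they were -1.28 and -1.04. Of 11 markers of T and NK cells, 7 were well above background somewhere, and Cd3d, Cd3g, Cd8a and Klrb1c were not. The medians over the 6 that could be compared were -0.28 at baseline and 0.13 within OHC-TRECK. Endothelial markers had medians of -0.08 and 0.11, and 4 of 5 markers of plasmacytoid dendritic cells had medians of -0.26 and -0.10. The 10 general cochlear markers had a median of 0.08 in both. The part of these cells in the differences of the members was not tested.

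**Figure D4:**
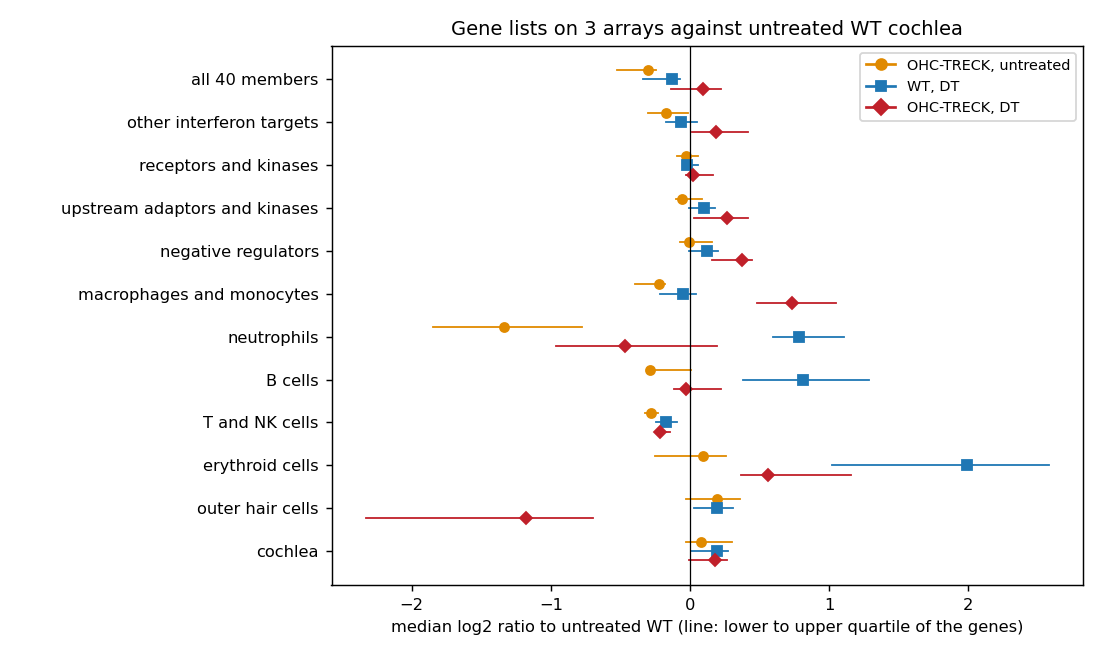
Median log2 ratio to the untreated WT array (horizontal axis) of the 40 interferon response genes and of other gene lists (rows), for untreated OHC-TRECK (circles), WT DT (squares) and OHC-TRECK DT (diamonds). Lines run from the lower to the upper quartile of the genes in a list and are not errors between mice. Macrophage markers lie at -0.22 in untreated OHC-TRECK and 0.73 in OHC-TRECK DT, where the members lie at -0.30 and 0.09, and neutrophil markers lie at -1.34 and -0.47.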

How the data were processed

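Cochlear RNA of each group was measured on 1 Agilent 1-colour (Cy3) array. The authors deposited the intensity of each spot as written by Feature Extraction 11.5.1.1 (background subtracted, linear, not scaled between arrays). A signal table they also deposited held these values divided by 1 constant per array, and it was used as an alternative.

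Control and outlier spots were left out, spots of a probe averaged, and the probe values divided by the 75th percentile of their array and brought to the log2 scale. A flag held for a probe if it held for over 0.5 of its spots. With 1 array per group no test was possible, and precision is limited by the number of arrays. The steps were tested on simulated data. Members, lists and alternatives were chosen with earlier results of these data known.

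All 40 members are named by role. All 4 values are given at least for members 2-fold apart between any 2 arrays and for the 3 of largest range per role. Of the other interferon targets, those 2-fold apart by measured values or bounds are named. A result for 1 pathway gene is not reported here. B2m, H2-K1 and the other genes named beyond this were chosen after their values were seen. Promoters came from RefSeq (GRCm38.p6). Python 3.11.15, pandas 2.3.3, numpy 2.4.6, R 4.3.3 and limma 3.58.1 were used.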

Additional observations from a re-analysis of the deposited data

Results flagged for a closer look

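The toxin difference of the members had opposite signs in the 2 genotypes by its medians, -0.13 in WT and 0.44 in OHC-TRECK, and the median of the per-gene difference between them was 0.595 on the log2 scale over 39 members. With 1 array per group, this difference was not tested, and the lower untreated OHC-TRECK array enters it.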

How the results depend on the processing

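No paired analysis was possible because each group has 1 array, and no array could be left out. Of 226 values of lists under 9 alternatives, 209 were the same within their limits and 17 moved. The limit was the spot SD of 0.071 for medians and a factor of 1.5 for counts. Only medians could be labelled reversed, and 0 of them were. Members' medians ranged from -0.33 to -0.29 at baseline, -0.13 to -0.11 for DT in WT, 0.43 to 0.46 within OHC-TRECK, 0.21 to 0.23 against WT DT and 0.05 to 0.12 against untreated WT. The number of members above both WT arrays ranged from 19 to 24. The toxin difference was larger in OHC-TRECK than in WT in 36 of 36 members with the mean of a gene's probes, in 38 of 39 with normexp and in 39 of 39 with the others. What moved were counts of a few genes past 2-fold. With normexp background correction, 0 members passed lower at baseline, 0 higher and 0 lower for DT in WT, and 0 lower for OHC-TRECK DT against WT DT or untreated WT. With the mean of a gene's probes, 1 was lower at baseline and 0 against untreated WT. With 1.5-fold in place of 2-fold, 6 were lower at baseline, 9 higher within OHC-TRECK and 2 higher against WT DT. With probes well above background on all 4 arrays, 0 were higher for DT in WT and 0 lower against WT DT, since Oas3 leaves. With no floor on dim signals, 1 was lower within OHC-TRECK, Oas3, and 2 were lower against untreated WT. With quantile normalization, 0 were lower against untreated WT. With scaling to the median, or the deposited signal table, 1 member was below both WT arrays. Of 708 values of the 18 genes given on every array, 34 moved by more than the spot SD of 0.071. Values for OHC-TRECK DT against untreated WT changed sign in 3 cases, all under 2-fold, in Ddx58, Zbp1 and Psmb9. In this comparison the 2 probes differed in sign for Ddx58 (-0.27 and 0.26) and for Zbp1 (-0.42 and 0.20), so their mean can change it. For Psmb9 the cause was not tested.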
